A study of Mus musculus with 30 samples.

Results

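The 13 single primordial germ cells (PGCs) labelled *Prdm14* (+/+), called WT here, were divided by whether *Prdm14* transcript was measured in them. The cells were chosen by their deposited log2 value for the only probe set of *Prdm14* on the array. The 6 cells above 6 are called *Prdm14*-positive, and the 7 cells at 6 or below are called *Prdm14*-low. They are part of a series of 30 cells, which also holds 13 cells labelled *Prdm14* (+/-) and 4 labelled *Prdm14* KO, that is, *Prdm14* (-/-). All came from embryos of C57BL/6 mice with a *Prdm14* (+/-) genotype that were crossed with each other, and were taken at E7.25-E7.5 from the base of the allantois bud. Each cell was picked by glass capillary, its cDNA was amplified and kept as a PGC when targeted PCR found *Prdm1*, and 1 array was hybridised per cell. The genotype was read by PCR. The labels name no embryo, so which cells share an embryo is not known and each side counts as 1 sample. No test was therefore run, and differences are set beside the spread between cells.

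PRDM14 is a PR domain transcriptional regulator that is made in the earliest PGCs together with PRDM1, which represses the somatic programme, and TFAP2C. In PGCs and embryonic stem cells it is known for holding down FGF signalling and the de novo DNA methyltransferases, and for keeping pluripotency genes on, working with the corepressor CBFA2T2 and with Polycomb. *Dppa3* encodes a small protein of PGCs and oocytes that is a common marker of established PGCs. TET1 oxidises 5-methylcytosine and takes part in the later phase of DNA demethylation in PGCs.

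The value of *Prdm14* was 6.74, 7.67, 10.09, 9.94, 9.34 and 10.44 in the *Prdm14*-positive cells, numbered 2, 3, 4, 6, 12 and 13. It was listed at 0 in all 7 *Prdm14*-low cells, numbered 1, 5, 7, 8, 9, 10 and 11. The value just above the threshold was thus 6.74, and no cell lay between it and 0. Values are given below in these orders of cells. *Prdm14* did not follow the genotype labels in the rest of the series. In the cells labelled *Prdm14* KO its value was 10.03, 12.06, 11.38 and 12.15, of which the last 3 were above every *Prdm14*-positive cell. In the cells labelled *Prdm14* (+/-) the lowest was 0, the median 10.004 and the highest 11.79, and 12 of 13 were above 6. No source used here places the probe set relative to the targeted part of the gene, and an exchange of genotype labels was not tested. The cells are therefore called WT-labelled, and what genotype the 7 *Prdm14*-low cells had rests on the label alone.

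The values compared below are log2 values of a model-based expression index, calculated from the probes of each probe set, and were floored at 6, so that a value listed at 0 counts as 6. A difference is the mean of the *Prdm14*-positive cells minus the mean of the *Prdm14*-low cells. Of 18193 genes other than *Prdm14*, 11931 were above 6 in at least 1 of the 13 cells, 2384 in all 13, and 6262 in none. More was detected in the *Prdm14*-positive cells, at 11442 to 14204 probe sets above 6 per cell against 9861 to 12680 in the *Prdm14*-low cells. The mean was 12779.7 in *Prdm14*-positive cells and 11362.4 in *Prdm14*-low cells, of 45101 probe sets. The median of the values above 6 ran the other way, at 8.995 to 9.64 in *Prdm14*-positive cells and 9.27 to 9.83 in *Prdm14*-low cells. The 5′ *Gapdh* probe set lay at 12.50 to 13.39 in *Prdm14*-positive cells and 12.89 to 13.24 in *Prdm14*-low cells, and the *lys* control transcript at 12.47 to 13.11 and 12.69 to 13.18 in the same order. Pairs of cells had a median Pearson r of 0.681 within the *Prdm14*-positive cells, 0.659 within the *Prdm14*-low cells and 0.674 between them, across all probe sets. By the array codes, run 1 held 4 *Prdm14*-positive and 6 *Prdm14*-low cells, and run 2 held 2 *Prdm14*-positive cells and 1 *Prdm14*-low cell. Cell 11, the *Prdm14*-low cell of run 2, stood apart. It was lowest of all 13 in *Prdm1* (8.04), *Dnd1* (8.40) and *Ifitm3* (8.59), had *Tfap2c* at 1.36, and had the highest somatic mesoderm score, 8.68. Several of the differences that leaving it out moved by more than 1.5 times, but not all of them, are also given without it.

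*Prdm1*, the founding regulator of the PGC fate and the gene by which the cells were recognised as PGCs, was higher in the *Prdm14*-positive cells. Its values were 10.05, 10.63, 10.96, 11.48, 11.24 and 11.97 there, against 9.33, 9.66, 9.28, 8.16, 10.52, 10.17 and 8.04 in the *Prdm14*-low cells. Every cell of both sides was above 6, and the sides overlapped by 3 cells, the lowest *Prdm14*-positive one and cells 9 and 10. The mean was 11.06 ± 0.67 in *Prdm14*-positive cells and 9.31 ± 0.94 in *Prdm14*-low cells (SD between cells). The difference of 1.75 was 1.54 without cell 11 and 1.26 among the 10 cells of run 1.

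*Dppa3* differed by less than the spread between cells. Its values were 7.82, 9.26, 10.58, 11.77, 0 and 9.25 in the *Prdm14*-positive cells, against 9.02, 11.21, 4.63, 10.71, 9.88, 10.10 and 3.40 in the *Prdm14*-low cells. It was above 6 in 5 of 6 *Prdm14*-positive cells and in 5 of 7 *Prdm14*-low cells. The means were 9.11 and 8.99, with a difference of 0.13 and a pooled SD of 2.10. This difference took either sign when 1 cell was left out, from -0.41 without cell 6, through -0.37 without cell 11, to 0.75 without cell 12.

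Among 11 measured genes of germ cell specification, *Prdm1* was the only one higher by at least 1, a 2-fold difference, and none was lower by as much. Over all genes tested, 1201 (6.6%) were at least 1 higher in the *Prdm14*-positive cells and 477 (2.62%) at least 1 lower. *Kit*, the receptor for stem cell factor, differed by 0.94 (pooled SD 1.84) with cell 3 at 0 and the other *Prdm14*-positive cells at 10.95 to 12.36. *Tfap2c*, which encodes an AP-2 factor needed for PGCs, averaged 11.43 in *Prdm14*-positive cells and 10.65 in *Prdm14*-low cells, and the difference of 0.78 came to 0.00 without cell 11. *Dnd1*, which encodes an RNA-binding protein needed for PGC survival, differed by 0.56 (0.18 without cell 11). The interferon-induced membrane protein genes *Ifitm3*, *Ifitm2* and *Ifitm1* differed by 0.79, 0.46 and 0.08, and without cell 11 *Ifitm3* and *Ifitm2* differed by 0.19 and 0.18. *Nanos3* was not found on the array under its symbol. The score of the list, the mean of its members in a cell, was 10.49 in *Prdm14*-positive cells and 9.93 in *Prdm14*-low cells. The difference of 0.56 (pooled SD 0.71) was 0.29 without cell 11, and its members' median was 0.46 against 0 over all genes.

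**Figure D1:**
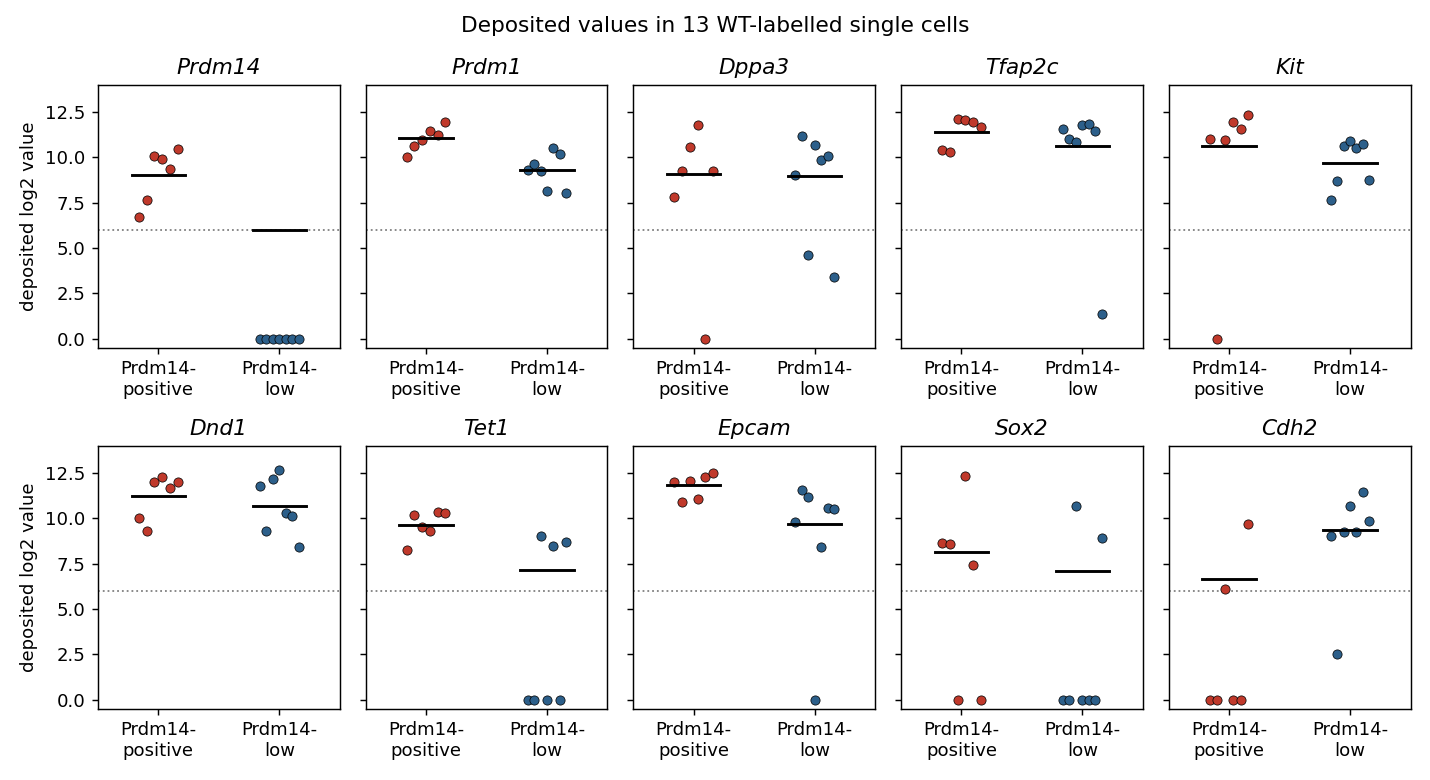
Deposited log2 values (y axis) of *Prdm14* and 9 further genes in the 6 *Prdm14*-positive (left, red) and 7 *Prdm14*-low (right, blue) WT-labelled cells, 1 point per cell. The bar is the mean after flooring at 6 and the dotted line marks 6. *Prdm1* and *Epcam* sit higher in the *Prdm14*-positive cells with some overlap, *Tet1* is at 0 in 4 of 7 *Prdm14*-low cells, *Cdh2* is above 6 in 2 of 6 *Prdm14*-positive and 6 of 7 *Prdm14*-low cells, and *Dppa3* spans a similar range in both.

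The core pluripotency genes were present in both sides. *Pou5f1*, which encodes OCT4, averaged 11.94 in *Prdm14*-positive cells and 11.33 in *Prdm14*-low cells (pooled SD 0.55). *Nanog*, the homeobox regulator, averaged 10.38 and 9.82 (pooled SD 1.62), and *Sall4*, a zinc finger partner of OCT4, 12.42 and 12.21 (pooled SD 0.21), *Prdm14*-positive cells given first in each. *Utf1*, a chromatin-bound factor of pluripotent cells, was the single one of 10 members at least 1 higher. It was at 7.89, 10.87 and 9.30 in *Prdm14*-positive cells 4, 6 and 12 and at 0 in the other 3, while all 7 *Prdm14*-low cells were listed at 0. Its difference of 1.68 was 1.04 without cell 6. The list score was 9.92 in *Prdm14*-positive cells and 9.56 in *Prdm14*-low cells, a difference of 0.36 (pooled SD 0.27).

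Of 14 genes of the naive pluripotency list, 1 was at least 1 higher and none lower. That gene was *Sox2*, the partner of OCT4 that PGCs switch back on, at 8.65, 8.57, 0, 12.31, 7.40 and 0 in *Prdm14*-positive cells against 0, 0, 10.65, 0, 0, 0 and 8.93 in *Prdm14*-low cells. It was thus measured in 4 of 6 *Prdm14*-positive and 2 of 7 *Prdm14*-low cells, with overlapping ranges, and its difference of 1.07 was 0.24 without cell 6. *Klf5*, *Dppa5a*, *Klf2* and *Zfp42* differed by 0.91, 0.80, 0.74 and 0.55, and *Klf2* and *Zfp42*, which encode regulators of the naive state, were above 6 in no *Prdm14*-low cell and in 1 and 2 *Prdm14*-positive cells. The mean difference of the list was 0.29 (pooled SD 0.41), with 1 *Prdm14*-positive cell at 7.96 and all 12 others at 7.12 or less.

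Genes of DNA methylation and its removal went both ways. *Tet1* was at 8.25, 10.15, 9.52, 9.29, 10.36 and 10.26 in *Prdm14*-positive cells against 0, 0, 9.01, 0, 8.47, 0 and 8.69 in *Prdm14*-low cells. All 6 *Prdm14*-positive cells had it, as did 3 of 7 *Prdm14*-low cells, and those 3 values were above only the lowest *Prdm14*-positive one. The means were 9.64 and 7.17, a difference of 2.47 (pooled SD 1.21) that was 2.39 within run 1. It was measured by 1 of the gene's 4 probe sets. A second one gave 7.29 in *Prdm14*-positive cells and 6.90 in *Prdm14*-low cells, and the remaining ones were at the floor in every cell. *Mbd4*, a thymine glycosylase gene, was above 6 in 6 of 6 *Prdm14*-positive and 3 of 7 *Prdm14*-low cells, with a difference of 1.24 (pooled SD 1.61). The other probe sets of *Mbd4* gave -0.40 and 0.38.

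Among the DNA methyltransferases, *Dnmt1*, the maintenance enzyme, was at 11.70, 11.12, 10.86, 11.97, 11.12 and 8.25 in *Prdm14*-positive cells against 11.83, 11.93, 11.38, 11.71, 12.16, 12.11 and 11.39 in *Prdm14*-low cells. Its difference was -0.95 (pooled SD 0.93), and -0.43 without cell 13, the lowest. With all cells, both of its other probe sets gave a difference of the same sign, -1.19 and -1.17. *Dnmt3b*, a de novo enzyme, was at 11.94, 12.15, 10.37, 0, 11.92 and 10.71 in *Prdm14*-positive cells and at 10.94 to 12.65 in every *Prdm14*-low cell. Its difference of -1.24 (pooled SD 1.63) was -0.33 without cell 6, and the gene's other probe set gave 0.51. *Uhrf1*, the partner that brings DNMT1 to replicating DNA, differed by 0.90 (pooled SD 1.91), *Dnmt3a*, the other de novo enzyme, by 0.51 (pooled SD 1.57), and *Dnmt3l*, their cofactor, by 0.32 (pooled SD 0.53). Of 13 measured members, 2 were at least 1 higher and 1 at least 1 lower. The list score was 9.16 to 9.68 in *Prdm14*-positive cells and 8.81 to 9.69 in *Prdm14*-low cells, a difference of 0.29 (pooled SD 0.26). Of 15 germline genes whose promoters are held off by DNA methylation, none differed by 1 or more and 7 were at the floor in all 13 cells. Of these genes *Ddx4*, the germ cell RNA helicase gene, was above 6 in 2 *Prdm14*-positive and 2 *Prdm14*-low cells, and *Sycp3*, a meiotic chromosome axis gene, in 3 of each.

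Of 14 cofactor and Polycomb genes, *Jarid2*, which encodes a targeting subunit of PRC2, was the only one at least 1 higher (difference 1.37, pooled SD 1.53, and 0.91 without cell 10), and none was lower by as much. *Cbfa2t2*, the corepressor partner of PRDM14, was above 6 in all 13 cells and averaged 10.10 in *Prdm14*-positive cells and 9.37 in *Prdm14*-low cells (pooled SD 1.12). The catalytic subunit *Ezh2* averaged 11.19 and 11.28 and the subunit *Eed* 10.68 and 10.53, both within 1 pooled SD. Of 15 H3K9 methylation genes, none was at least 1 higher and *Kdm4a*, a demethylase gene, was lower by 1.19, at the floor in all *Prdm14*-positive cells and above 6 in 2 *Prdm14*-low cells (-0.53 without cell 10). The H3K9 methyltransferase gene *Ehmt2* differed by 0.44 and its partner *Ehmt1* by 0.31.

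FGF signalling, which PRDM14 is known to hold down in stem cells, showed no common direction, with 1 of 18 genes at least 1 higher and 2 at least 1 lower. *Dusp6*, an ERK phosphatase gene and a target of the pathway, was at 10.46, 11.74, 10.84, 12.03, 11.07 and 11.69 in *Prdm14*-positive cells against 11.42, 9.99, 10.35, 11.30, 8.44, 0 and 10.28 in *Prdm14*-low cells. Its difference was 1.62 (pooled SD 1.46), and without the *Prdm14*-low cell at 0 it was 1.01. *Etv4*, an ETS factor and another target, was at 0 in all 6 *Prdm14*-positive cells and at 9.01, 8.14, 9.32 and 7.44 in *Prdm14*-low cells 1, 5, 10 and 11. Its relative *Etv5* was above 6 in all 13 cells and differed by -0.29. The receptor gene *Fgfr1* differed by -0.21. Among ligand genes, *Fgf8* differed by 0.88 (pooled SD 1.39), and *Fgf3*, *Fgf17* and *Fgf4* by -1.10, -0.91 and -0.49. Without cell 11, *Fgf3*, *Fgf17* and *Fgf4* came to -0.54, -0.71 and 0.00.

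Of all genes tested, 6.6% were at least 1 higher and 2.62% at least 1 lower. In the BMP pathway, which induces PGCs from the epiblast, 4 of 15 genes were at least 1 higher and none lower. They were *Bambi*, a decoy receptor gene (10.96 in *Prdm14*-positive cells and 9.36 in *Prdm14*-low cells), the receptor genes *Acvr1* (8.63 and 7.32) and *Bmpr2* (7.60 and 6.48), and *Smad7*, which encodes an inhibitory SMAD (8.70 and 7.50). Their pooled SDs were 1.43 to 1.57, larger than the differences for 3 of the 4 genes. Without a single cell *Smad7* came to 0.77 (cell 6) and *Bmpr2* to 0.58 (cell 13). With the number of probe sets above 6 as a covariate, chosen after the data were seen, *Acvr1* came to -0.03. Its other probe sets gave -0.22 and 0.00. The target *Id1* averaged 12.40 in *Prdm14*-positive cells and 12.41 in *Prdm14*-low cells, and the list's median difference was -0.11. In the Nodal and activin pathway 3 of 12 genes were at least 1 higher and none lower, namely the ligand gene *Nodal* (7.76 and 6.55), *Smad2*, its signal transducer (9.09 and 8.06), and *Fst*, an activin antagonist (10.32 and 9.13). Without a single cell their differences came to 0.74 (*Nodal*, cell 12), 0.69 (*Smad2*, cell 5) and 0.67 (*Fst*, cell 5). The score of this list was 8.22 to 8.93 in *Prdm14*-positive cells and 7.85 to 8.33 in *Prdm14*-low cells. The difference was 0.43 (pooled SD 0.20), and 0.36 with the number of probe sets above 6 in each cell as a covariate, an alternative chosen after the data were seen. Among 15 WNT genes none was at least 1 higher, and *Wnt3a* (-1.05) and the antagonist gene *Dkk1* (-1.44) were at least 1 lower, both within 1 pooled SD. *Dkk1* came to -0.94 without cell 11 and -0.89 without cell 9.

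Markers of the neighbouring cells were compared next, since the gate for PGCs rested on *Prdm1* alone. Of 19 somatic mesoderm genes, none was at least 1 higher and *Twist1*, a mesenchymal factor, was lower by 1.04 (pooled SD 1.51). *T*, a mesoderm marker planned for this comparison, was not among the 19 measured. The score was 7.30 to 8.30 in *Prdm14*-positive cells and 7.28 to 8.68 in *Prdm14*-low cells, and its difference of -0.28 was -0.17 without cell 11. *Msx1* and *Evx1*, which allantoic and primitive streak mesoderm also uses, were above 6 in all 13 cells and differed by -0.01 and 0.06. *Mesp1*, an early mesoderm regulator, was above 6 in 4 of 6 *Prdm14*-positive and 5 of 7 *Prdm14*-low cells. Of 18 *Hox* genes, 8 were at the floor in all 13 cells, and *Hoxd9*, a posterior member, was the 1 gene lower by at least 1. It was at 6.48, 8.08, 0, 9.02, 0 and 0 in *Prdm14*-positive cells against 9.52, 0, 9.68, 10.83, 10.14, 11.24 and 0 in *Prdm14*-low cells. Its difference was -2.13 (pooled SD 1.83), with overlapping sides. The *Hox* list score was 6.09 to 6.41 in *Prdm14*-positive cells and 6.28 to 6.73 in *Prdm14*-low cells. The score's difference was -0.21 (pooled SD 0.15), and -0.17 within run 1.

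*Cdh2*, the N-cadherin gene that is turned on as epiblast becomes mesoderm, was among the genes lowest in the *Prdm14*-positive cells. Its values were 0, 0, 6.12, 0, 0 and 9.66 in *Prdm14*-positive cells against 9.04, 2.51, 9.24, 10.65, 9.23, 11.42 and 9.84 in *Prdm14*-low cells. Cell 13 was the only *Prdm14*-positive cell well above the floor and cell 5 the only *Prdm14*-low cell below it. The difference was -2.72 (pooled SD 1.61), it was -3.23 within run 1, and the gene's other probe set gave -2.30. *Epcam*, an epithelial adhesion molecule gene that PGCs keep on, was at 12.02, 10.89, 12.07, 11.04, 12.30 and 12.51 in *Prdm14*-positive cells against 9.79, 11.53, 11.16, 0, 8.42, 10.54 and 10.51 in *Prdm14*-low cells. Its difference was 2.10 (pooled SD 1.49), and the gene's other probe set gave 1.10. *Cdh1*, which encodes E-cadherin, was above 6 in every cell and differed by 0.51 (pooled SD 0.80), and *Sox3*, an epiblast and neural factor gene, differed by 1.36 (pooled SD 1.64), which was 0.58 without cell 11 and 0.50 within run 1.

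Of 14 endoderm genes, *Sox17* was the only one at least 1 higher. It encodes an endoderm factor that early mouse PGCs also express, and it was at 10.52, 9.74, 11.97, 11.67, 11.37 and 10.91 in *Prdm14*-positive cells against 10.52, 0, 0, 9.71, 11.61, 11.60 and 4.21 in *Prdm14*-low cells. The defining endoderm genes *Foxa2* and *Hhex* were above 6 in 1 *Prdm14*-positive cell each and in no *Prdm14*-low cell. None of 16 blood and endothelial genes differed by 1 or more, and the scores were 6.00 to 6.46 in *Prdm14*-positive cells and 6.00 to 6.53 in *Prdm14*-low cells. Of 10 extraembryonic ectoderm genes 1, *Plac1*, a placental gene, was lower by 1.32 (pooled SD 2.01). The part of such cells in the differences was not tested.

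**Figure D2:**
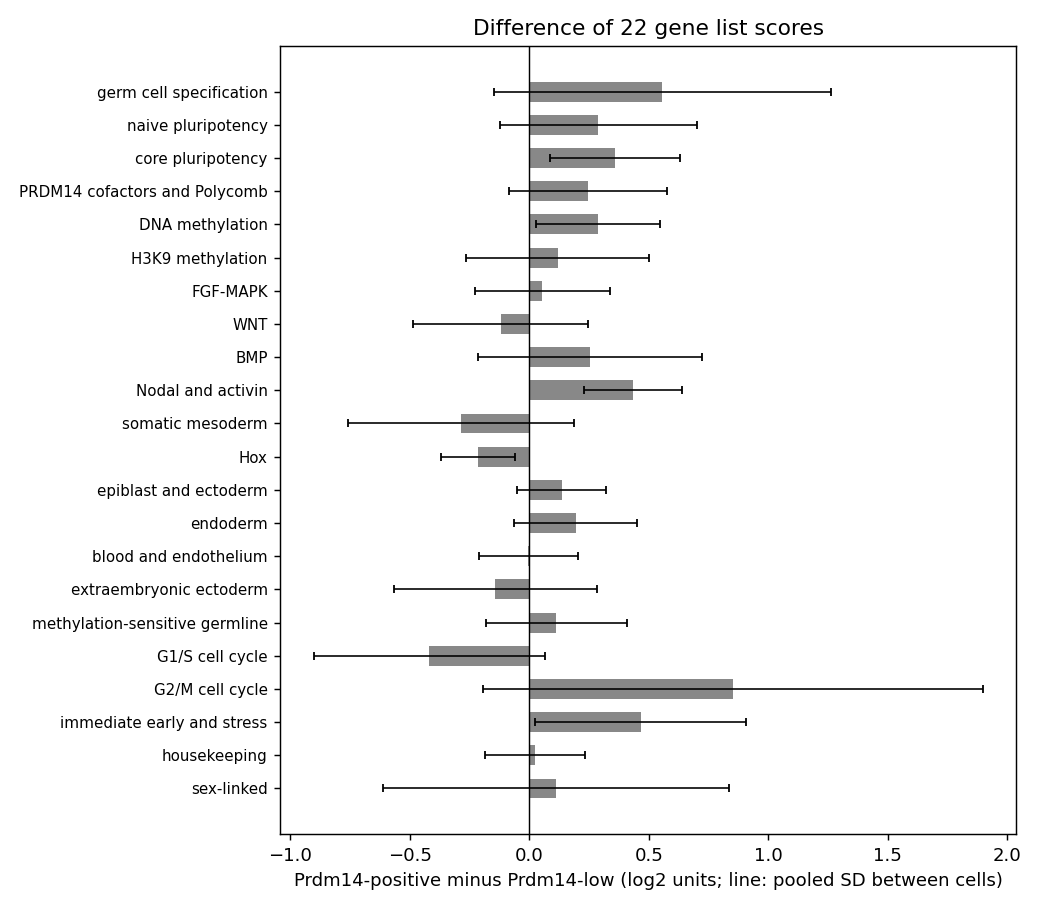
Difference of the mean score of 22 gene lists, *Prdm14*-positive minus *Prdm14*-low WT-labelled cells, in log2 units (x axis), with the pooled SD between cells as a line. The G2/M list reaches 0.85 with a pooled SD of 1.05, the Nodal and activin list 0.43 with 0.20, and the blood and endothelial list lies at 0.00.

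Cell cycle genes were compared by phase. Of 17 G2/M genes, 6 were at least 1 higher and none lower, and of 16 G1/S genes none was at least 1 higher and 2 lower. The G2/M score was 11.94, 11.41, 11.97, 10.74, 9.22 and 12.10 in *Prdm14*-positive cells against 11.04, 10.53, 9.01, 10.59, 10.97, 8.99 and 11.50 in *Prdm14*-low cells. The mean was 11.23 in *Prdm14*-positive cells and 10.38 in *Prdm14*-low cells, a difference of 0.85 (pooled SD 1.05). *Prdm14*-positive cells 6 and 12 lay below 3 and 5 of the *Prdm14*-low cells. Cell 10, which had the lowest score, also had the fewest probe sets above 6 (9861). With that number as a covariate, chosen after the data were seen, the difference was -0.31.

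*Kif11*, the mitotic kinesin gene, was at 10.37, 10.37, 11.40, 8.44, 0 and 9.12 in *Prdm14*-positive cells. In *Prdm14*-low cells it was above 6 in cell 11 alone (10.37), the others lying at 0 to 5.43. Its difference was 2.66 (pooled SD 1.78), and it was 1.14 with the covariate. A second probe set of *Kif11* gave only 0.56, above 6 in 5 *Prdm14*-positive and 3 *Prdm14*-low cells. The remaining one was at the floor in every cell. *Cenpf*, a kinetochore protein gene, averaged 11.72 in *Prdm14*-positive cells and 9.63 in *Prdm14*-low cells (pooled SD 2.07), and *Plk1*, *Aurkb*, *Cenpe* and *Kif20a*, which encode mitotic kinases and motors, differed by 1.36, 1.22, 1.07 and 1.04. With the covariate all 4 took the other sign, at -1.63, -0.27, -0.30 and -1.11, and without a single cell they came to 0.84 (*Plk1*, cell 7), 0.70 (*Aurkb*, cell 7), 0.49 (*Cenpe*, cell 10) and 0.47 (*Kif20a*, cell 10). On the G1/S side, *Rrm2*, a subunit of the enzyme that makes deoxynucleotides, averaged 9.61 in *Prdm14*-positive cells and 11.39 in *Prdm14*-low cells (pooled SD 1.92). Its difference of -1.78 was -1.06 without cell 4, and its other probe sets gave -1.52 and 1.63. *Cdc6*, a replication licensing gene, averaged 7.59 and 8.87 in the same order (pooled SD 1.76). The 6 genes of the replicative helicase, *Mcm2* to *Mcm7*, were above 6 in all 13 cells. *Mcm2*, *Mcm3*, *Mcm6* and *Mcm7* differed by -0.01 to 0.05, and both *Mcm4* and *Mcm5* by -0.21.

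**Figure D3:**
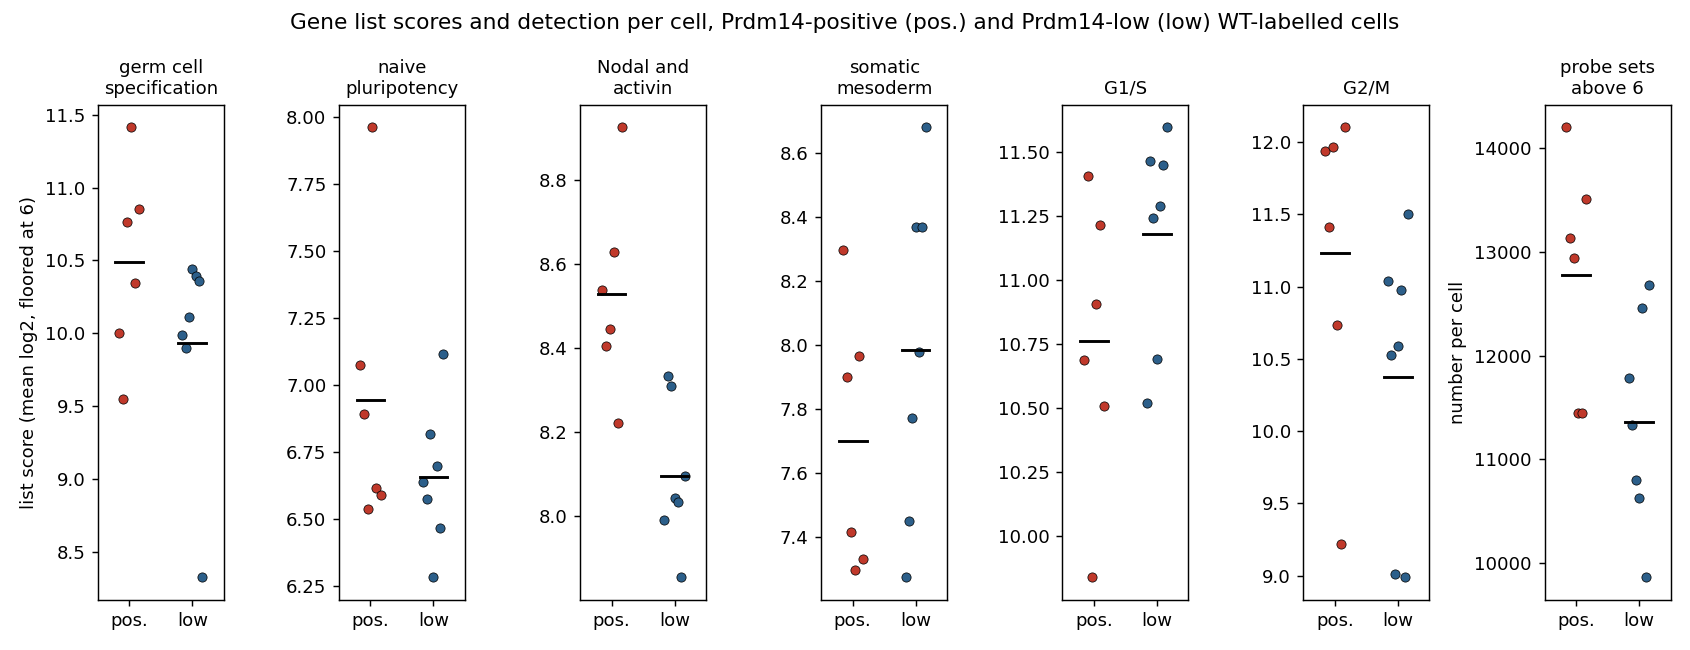
Scores of 6 gene lists (mean log2 value of the members, floored at 6; each panel has its own axis, which does not start at 0) and number of probe sets above 6 per cell, in the 6 *Prdm14*-positive (left, red) and 7 *Prdm14*-low (right, blue) WT-labelled cells. Bars are means. Every panel overlaps between the sides. The Nodal and activin score is 8.22 to 8.93 in *Prdm14*-positive cells and 7.85 to 8.33 in *Prdm14*-low cells, and the number of probe sets is 11442 to 14204 and 9861 to 12680.

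Of 17 immediate early and stress genes, which cell dissociation can switch on, 5 were at least 1 higher and none lower. The list score was 7.11 to 7.95 in *Prdm14*-positive cells and 6.32 to 8.00 in *Prdm14*-low cells, a difference of 0.47 (pooled SD 0.44). *Ddit4*, an inhibitor of mTOR signalling, was at 10.86, 8.91, 10.82, 10.40, 10.44 and 11.28 in *Prdm14*-positive cells against 1.83, 0, 9.79, 7.67, 11.54, 6.07 and 8.09 in *Prdm14*-low cells, a difference of 2.57 (pooled SD 1.67). *Trp53inp1*, a p53 target, averaged 9.09 in *Prdm14*-positive cells and 7.15 in *Prdm14*-low cells (pooled SD 1.91), and the others were *Ier2*, *Junb* and *Ddit3* with differences of 1.15, 1.12 and 1.02. Without a single cell *Junb* came to 0.74 (cell 4) and *Ddit3* to 0.63 (cell 13). *Fos*, *Jun*, *Egr1* and *Atf3*, the classical early response genes, lay between -0.21 and 0.30. The probe set used for *Jun* was above 6 in only 1 cell of each side. Its other probe set gave -1.92, above 6 in no *Prdm14*-positive and 4 *Prdm14*-low cells. Among 13 housekeeping genes the list score was 11.90 in *Prdm14*-positive cells and 11.87 in *Prdm14*-low cells. *Tbp*, the TATA-binding protein gene, was higher by 1.04 and *Hprt*, a purine salvage gene, lower, with a difference of -1.24 (-0.75 without cell 12).

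Transcripts tied to sex were not evenly spread. *Xist*, the RNA that coats the inactive X chromosome, was above 6 in 2 of 6 *Prdm14*-positive cells (11.12 in cell 6 and 10.96 in cell 12) and in 5 of 7 *Prdm14*-low cells (9.97 to 12.43 in cells 5, 7, 8, 9 and 11). A Y-linked gene, *Eif2s3y*, *Kdm5d* or *Uty*, was above 6 in 3 *Prdm14*-positive and 2 *Prdm14*-low cells. No cell had both, and 1 *Prdm14*-positive cell had neither. Each side held cells with *Xist* and cells with a Y-linked gene, so neither side can be taken as cells of 1 embryo. The share of cells with *Xist* therefore differs between the sides, and its part in the other differences was not tested.

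Over all genes, the differences ran more often upwards, with 1201 of 18193 genes at least 1 higher in the *Prdm14*-positive cells (6.6%) and 477 at least 1 lower (2.62%). The median difference was 0. Among the 2384 genes above 6 in all 13 cells, where no value is at the floor, 51 were at least 1 higher (2.14%) and 33 at least 1 lower (1.38%), with a median of 0.06.

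The 12 highest and 12 lowest genes were taken from those with a mean of at least 8 and at least 5 cells above 6 on the higher side, which favours genes detected more often there. *Mxi1*, a MAX-binding repressor gene, was at 8.22, 8.99, 10.59, 10.97, 11.51 and 11.31 in *Prdm14*-positive cells, and in *Prdm14*-low cells it was at 9.93 in cell 9, 7.10 in cell 11 and 0 in the other 5. *Bvht*, a long noncoding RNA of cardiac mesoderm, was at 10.46 to 11.16 in 5 of 6 *Prdm14*-positive cells, with cell 4 at 0, and in *Prdm14*-low cells it was at 10.62 in cell 8 and 0 in the other 6. Their differences were 3.55 (pooled SD 1.42) and 3.41 (pooled SD 1.87). *Dbn1* and *Lpin2*, described below, differed by 3.50 and 3.47. The other 8 of the 12 highest were *Zfp212*, a zinc finger gene (3.41), *Ric8b*, a chaperone of G protein subunits (3.24), *Ttyh1*, a membrane protein gene (3.06), *Rapgef6*, a Rap exchange factor (3.03), *Sgo1*, the guardian of centromeric cohesion (2.87), *Bdp1*, a subunit of the polymerase III factor TFIIIB (2.81), *Mdm1*, a centriole protein gene (2.78), and *Septin10*, a cytoskeletal GTPase gene (2.78). Each was above 6 in 5 or 6 *Prdm14*-positive and 1 to 3 *Prdm14*-low cells, and 1 of the 3 other probe sets of *Ttyh1* and the other probe set of *Mdm1* gave a difference of opposite sign.

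At the low end, *Epc2*, a homologue of Enhancer of polycomb, was at 5.19, 2.95, 7.21, 2.39, 2.47 and 0 in *Prdm14*-positive cells against 10.44, 0, 10.95, 10.34, 10.28, 11.43 and 9.68 in *Prdm14*-low cells, a difference of -3.67 (pooled SD 1.37). The sides overlapped through *Prdm14*-low cell 5 alone. *H2bc22*, a histone H2B gene, was at 12.05 and 12.65 in *Prdm14*-positive cells 2 and 3 and at 0 in the other 4, against 11.63 to 12.81 in 6 *Prdm14*-low cells and 0 in cell 9. Its difference was -3.38 (pooled SD 2.86). The other 10 of the 12 lowest were *Fbxw22*, an F-box gene (-3.15), *Cdh2* (-2.72), *Nfkbib*, an inhibitor of NF-κB (-2.68), *Tvp23b*, a Golgi protein gene (-2.59), *Nmi*, a partner of MYC and STAT proteins (-2.56), *Nanp*, a phosphatase gene of sialic acid synthesis (-2.54), *Ptpmt1*, a mitochondrial phosphatase gene (-2.44), *Xist* (-2.41), *Amotl2*, an angiomotin family gene (-2.36), and *S100a10*, the partner of annexin A2 (-2.32, and -1.40 without cell 4). *Fbxw22* was above 6 in no *Prdm14*-positive and 5 *Prdm14*-low cells.

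**Figure D4:**
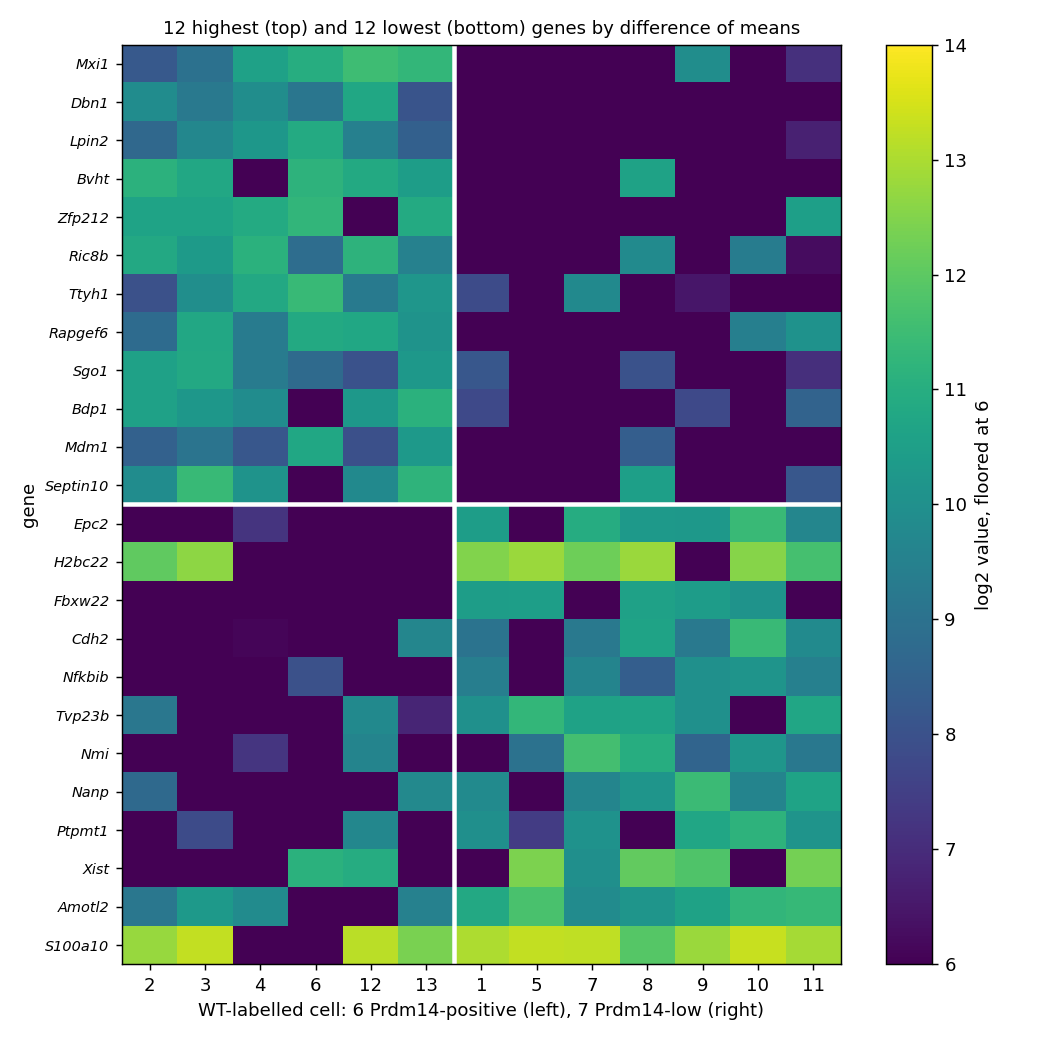
Log2 values floored at 6 (colour) of the 12 genes highest and the 12 genes lowest in *Prdm14*-positive against *Prdm14*-low WT-labelled cells (rows), in each of the 13 cells (columns, by cell number, *Prdm14*-positive left of the white line). The differences run from 3.55 for *Mxi1* to 2.78 for *Septin10* in the upper block and from -3.67 for *Epc2* to -2.32 for *S100a10* in the lower one, and dark squares are values at or below 6.

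Only a few genes separated the 2 sides fully. In 6 genes (0.033%) every *Prdm14*-positive cell was above every *Prdm14*-low cell, and in 2 genes (0.011%) the reverse held. Whether an arbitrary division of the same cells would separate as many genes was not tested. *Dbn1*, which encodes the actin-binding protein drebrin and lies on chromosome 13, was at 9.89, 9.24, 9.93, 9.14, 10.77 and 8.07 in *Prdm14*-positive cells against 0, 0, 3.11, 0, 0, 0 and 2.25 in *Prdm14*-low cells. Its gap, the distance from the lowest *Prdm14*-positive value to the highest *Prdm14*-low value after flooring, was 2.07, and the gene's other probe set gave a difference of 0.62. *Lpin2*, a phosphatidate phosphatase gene on chromosome 17, was at 8.71, 9.70, 10.24, 10.89, 9.47 and 8.46 in *Prdm14*-positive cells, and in *Prdm14*-low cells it was at 6.74 in cell 11 and 0 in the other 6. Its gap was 1.73, while of the gene's 3 other probe sets 2 gave 0.00 and 1 gave 0.55.

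The other 4 were *Erbin*, an ERBB2-binding scaffold gene, *Tsr2*, a ribosome assembly gene, *Tbc1d10b*, a Rab GTPase-activating protein gene, and *Prorp*, the nuclease subunit of mitochondrial RNase P. Their gaps were 0.38, 0.11, 0.09 and 0.03. For *Erbin* the 3 other probe sets gave differences of opposite sign, -0.57, -0.33 and -0.23, and so did the other probe set of *Tsr2* (-0.41). Lower in every *Prdm14*-positive cell were *Chchd6*, a gene of the mitochondrial MICOS complex, with a gap of 0.29, and *Mapk7*, which encodes the kinase ERK5, with a gap of 0.05. *Chchd6* was at 8.55, 8.31, 7.80, 8.19, 3.36 and 8.64 in *Prdm14*-positive cells against 10.03, 9.28, 10.65, 9.40, 8.93, 9.10 and 10.27 in *Prdm14*-low cells, and its other probe set gave -0.996.

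Promoters were searched for GGTCTCTAA, the motif known for PRDM14 in embryonic stem cells, on both strands, within 250 bases before to 50 after the start of each gene in RefSeq (GRCm38.p6). Of 990 genes at least 1 higher that had a promoter sequence, 5 held it (0.505%), as did 0 of 400 genes at least 1 lower, against 41 of 14453 genes measured (0.284%) and 81 of 27025 of all promoters (0.300%). The shorter core GGTCTCT, which the longer motif contains, was in 6.46% of the genes higher, 6.75% of the genes lower and 6.63% of the genes measured. A match is a string of letters and not evidence of binding. The 5 matches are shown because they are the only ones among the genes higher in the *Prdm14*-positive cells. Each is given along the strand of its gene, with the motif or its reverse complement in capitals.
*Abcb6*, chr1:75180611-75180639, minus strand: ctgaagcaggTTAGAGACCagggaggcct
*Abhd11*, chr5:135009337-135009365, plus strand: gtcgggaactGGTCTCTAAgcggctcaca
*Alg9*, chr9:50775053-50775081, plus strand: aagcaaccttTTAGAGACCtctccttggg
*Fam110a*, chr2:151973378-151973406, minus strand: tggatcgggcTTAGAGACCcttggcgggg
*Tspan14*, chr14:40948253-40948281, minus strand: ttaggtggctTTAGAGACCtccttgactt

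Their genes differed by 1.31 (*Abcb6*, a porphyrin transporter gene), 1.28 (*Abhd11*, a mitochondrial hydrolase gene), 1.39 (*Alg9*, a mannosyltransferase gene), 1.42 (*Fam110a*) and 1.19 (*Tspan14*, a tetraspanin gene). *Abhd11* and *Tspan14* were above 6 in 6 of 6 *Prdm14*-positive and 6 of 7 *Prdm14*-low cells, with means of 9.43 and 10.95 in *Prdm14*-positive cells and 8.15 and 9.76 in *Prdm14*-low cells.

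The 13 cells labelled *Prdm14* (+/-) took no part in the division and were used to describe the same genes against *Prdm14* from cell to cell. These cells share the amplification method with the WT-labelled cells, but only in part the array runs. Of them 7 lay in run 2 and 6 in run 3, which held no WT-labelled cell and all 4 cells labelled *Prdm14* KO. In the *Prdm14* (+/-) cells, *Prdm14* went with the number of probe sets above 6 with a Pearson r of -0.43. The median r with *Prdm14* was 0.00 over 1190 genes at least 1 higher in the *Prdm14*-positive WT-labelled cells that varied there, -0.10 over 474 genes at least 1 lower, and -0.02 over all 12226 genes. *Dppa3* had an r of 0.83 (0.68 without the 2 cells farthest from the median of *Prdm14*), *Dusp6* 0.82 (0.57), *Sox2* 0.76 (0.68), *Ddit4* 0.74 (0.60), *Epcam* 0.73 (0.39) and *Hoxd9* -0.74 (-0.37). *Prdm1* had 0.42 (0.37), *Tet1* 0.37 (-0.05), *Cdh2* -0.36 (0.13), *Lpin2* 0.29 (-0.12) and *Dbn1* -0.44 (-0.53). *Dbn1*, the gene with the widest gap in the WT-labelled cells, thus ran the other way among the *Prdm14* (+/-) cells, and it was above 6 in 5 of 13 of them and in 0 of 4 cells labelled *Prdm14* KO. *Tet1* was at 10.79, 10.95, 10.39 and 10.43 and *Prdm1* at 11.78, 12.27, 11.38 and 11.97 in the cells labelled *Prdm14* KO, which all had *Prdm14* transcript.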

How the data were processed

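The cells were measured singly on Affymetrix mouse arrays. The values deposited are log2 MBEI calculated by the authors with dChip 1.3 (PM/MM difference model). How arrays were scaled, and why many values are 0, is not stated in any source used. Of 45101 probe sets, 34958 had 1 gene symbol in the platform's annotation, 932 several and 9211 none listed. A gene was represented by its brightest probe set, averaged over all 30 arrays. Values were floored at 6 (64 MBEI). Array codes in the labels gave the run.

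The members and gene lists were chosen with earlier results of these data known. Of 327 genes listed in 22 lists, 18 were not found by symbol. Named genes were *Dppa3*, *Prdm1*, *Tfap2c*, list members, the 12 highest and 12 lowest by difference with a mean of at least 8 and at least 5 cells above 6 on the higher side and the same sign in run 1, and up to 6 genes per direction whose sides did not overlap; the 5 genes with a motif match were chosen after their values were seen. Each side counts as 1 sample, so no test was run. The precision is set by 6 and 7 cells, and 1 array per cell cannot separate a low transcript from failed amplification. The calculation was tested on simulated data. Other floors, normalizations, splits and left-out cells were tried. Calculations used pandas 2.3.3 with NumPy 2.4.6 under Python 3.11.15.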

Additional observations from a re-analysis of the deposited data

Results flagged for a closer look

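Of 86 genes and scores examined, each side on its own, 5 had 1 cell far from the others of its side, and chance flags about 1 in 20. Among *Prdm14*-positive cells, *Cenpf* was 8.98 in cell 12, against 11.90 to 12.54 in the others. *Ddit4* was 8.91 in cell 3, against 10.40 to 11.28. *Jarid2* was 7.43 in cell 4, against 10.31 to 10.87. Among *Prdm14*-low cells, the germ cell score was 8.33 in cell 11, against 9.90 to 10.44, and *S100a10* was 11.88 in cell 8, against 12.81 to 13.32.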

How the results depend on the processing

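The counts of genes followed the floor and the choice of probe set. At least 1 higher in *Prdm14*-positive cells were 2384 genes with a floor of 4 and 240 with a floor of 8. There were 742 when the probe sets of a gene were averaged. That averaging came before flooring, so values listed at 0 pull a gene's mean towards the floor. At least 1 lower were 980 with a floor of 4, 111 with a floor of 8, 757 by medians over cells, 296 with the mean over probe sets, 789 with the threshold for *Prdm14* at 8 (4 against 9 cells), and 1187 with the number of probe sets above 6 as a covariate, an alternative chosen after the data were seen. Leaving out 1 cell gave 1136 to 1405 genes higher and 469 to 617 lower. Full separation was also counted with fewer cells and with other settings. Leaving out cells can only keep or add separated genes. The counts with 1 cell left out or within run 1 therefore could not fall, and they do not measure stability. With 1 cell left out, full separation held for 7 to 18 genes upwards and 2 to 11 downwards. It rose by more than 1.5 times in each direction for 10 of the 13 cells. The rise was largest upwards for cell 12 (18 genes) and downwards for cell 10 (11 genes). It held for 51 upwards and 17 downwards within run 1, and for 21 and 5 with the threshold at 8. Downwards it held for 4 genes after quantile normalization, 9 with medians made equal and 1 with the mean over probe sets. A threshold of 0 gave the same cells.

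Of the list scores, the Nodal and activin difference was 0.22 with a floor of 8, the epiblast and ectoderm one -0.093 with the mean over probe sets, and the G2/M one -0.31 with the covariate. All other planned settings moved a list's difference by less than 1 pooled SD. *Dkk1* (0.00166), *Dnmt3b* (0.87), *Erbin* (-0.15), *Rrm2* (0.49) and *Ttyh1* (-0.15) changed sign with the mean over probe sets, *Plk1* (-0.0139) with the threshold at 8, and *Acvr1* (-0.0326), *Aurkb* (-0.27), *Cenpe* (-0.30), *Kif20a* (-1.11) and *Plk1* (-1.63) with the covariate. The cause was not tested. *Tet1* and *Lpin2* came to 0.00 with the mean over probe sets. That mean was taken over deposited values before flooring, and both genes had probe sets at the floor in every cell. The 0.00 therefore does not show that their probe sets gave no difference. The sign changes with the mean over probe sets also rest on values averaged before flooring. *Prdm1* kept 1.26 to 2.03 under every setting. No paired analysis was possible because the sides divide the cells of 1 label and the numbers only name cells.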
